A study of Mus musculus with 4 samples.

Results

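The 10 genes described here, *Pou5f1*, *Nanog*, *Sox2*, *Zfp42*, *Esrrb*, *Klf4*, *Utf1*, *Tdgf1*, *Dppa4* and *Dppa5a*, are active in mouse embryonic stem cells (mESCs), and most of them are shut off when these cells become neurons. They were taken by symbol from the 23420 genes of the count data, and all 10 were listed there. RNA-seq was performed in cultures of cervical motor neurons (MNs) made from wild type (WT) E14 cells, an mESC line, and from *Patz1* -/- (*Patz1* KO) cells derived from E14. Each genotype had 2 libraries of total RNA depleted of ribosomal RNA. Both genotypes were kept in medium with LIF and 2i, grown into embryoid bodies in 2 days, and patterned with 1 μM retinoic acid and 0.5 μM smoothened agonist. The *Patz1* KO lines came from single cells after CRISPR cutting. The labels do not say which line gave which library, so a difference between the genotypes and a difference between clones cannot be told apart. The question was whether mESC genes still had transcripts in the MN cultures, and whether their level differed between the genotypes.

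In mESCs, OCT4 (the product of *Pou5f1*), SOX2 and NANOG bind many of the same enhancers, their own included, and keep each other's genes active. A second layer of factors, such as ESRRB, KLF4 and the KLF family, belongs to the naive state that 2i medium favours. During neural differentiation *Pou5f1*, *Nanog* and the naive factors are silenced, while *Sox2* stays on in neural progenitors. PATZ1, the factor removed here, is a zinc finger protein that binds G-rich DNA.

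The total count went from 14769104 to 15728158 in the WT libraries and from 17402342 to 23881522 in the *Patz1* KO libraries. CPM is the count scaled by the TMM library size. A gene with 3 counts, taken as the detection limit, stood at 0.126 to 0.203 CPM of the total count, without the TMM factor. This limit covers counting error only. *Patz1* went from 92.9 ± 1.96 to 45.1 ± 3.56 CPM (SD, n = 2 each), so its transcripts were still counted in both *Patz1* KO libraries. The sample titles name ESCs while the source and cell type labels name MNs. All 16 genes of an MN list were tested, and 15 of them averaged at least 10 CPM, whereas 9 of the 10 mESC genes stayed under 5 CPM in every library. The study's methods describe replicates as independent differentiations, and the p values measure the spread between 2 libraries per group.

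**Figure D1:**
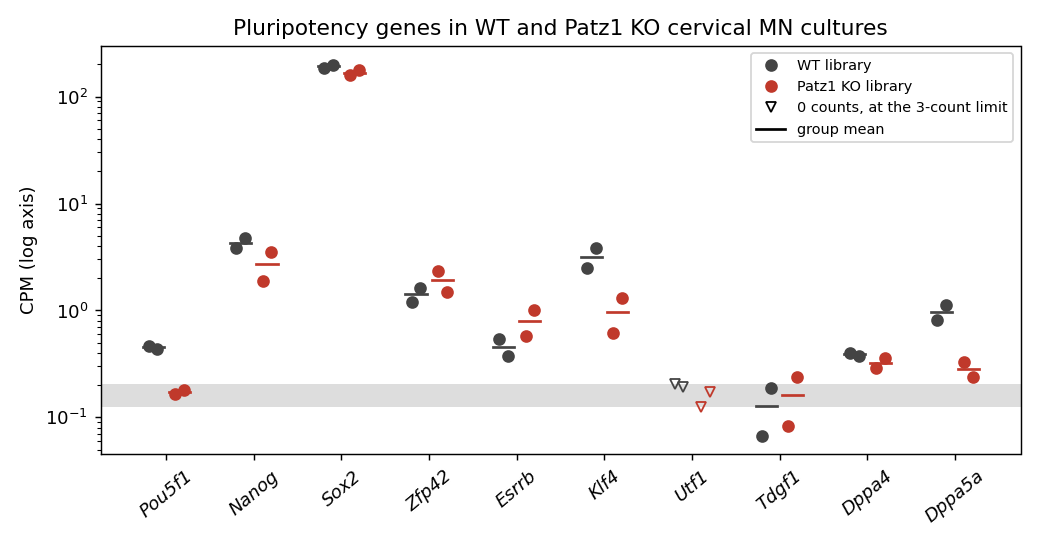
Level of each of the 10 genes in CPM on a log axis, with a point for every WT and *Patz1* KO library and a line at each group mean. A grey band marks the detection limit (0.126 to 0.203 CPM of the total count), and open triangles at that limit mark 0 counts. *Sox2* lies between 159 and 199 CPM in all libraries, and the other genes lie under 5 CPM. *Klf4* and *Dppa5a* are lower in both *Patz1* KO libraries and were called. *Pou5f1*, *Nanog*, *Sox2* and *Dppa4* are also lower in both, without a call.

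*Sox2* made up nearly all of the mESC gene counts, *Pou5f1* was close to the detection limit, and *Nanog* lay between them. *Nanog* and *Sox2* did not pass the test between the genotypes, and *Pou5f1* could not be tested. *Pou5f1* encodes OCT4, the POU factor without which the pluripotent state is lost. The WT libraries held 7 and 7 of its reads and the *Patz1* KO libraries 4 and 3, or 0.455 ± 0.021 and 0.172 ± 0.0098 CPM (SD, n = 2 each). Both *Patz1* KO libraries were below both WT libraries, but the gene had too few counts for the test. The ratio of *Patz1* KO to WT was 0.375, with an exact 95% interval of 0.128 to 0.994 that covers counting error only. With no filter on low counts, the adjusted p of *Pou5f1* was 0.262.

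*Nanog*, a homeodomain factor that varies from cell to cell in mESCs, was counted 57 and 75 times in WT, against 46 and 59 times in *Patz1* KO. These were 3.83 and 4.72 CPM in WT against 1.90 and 3.52 CPM in *Patz1* KO, and the groups did not overlap, by a narrow margin. The log2 fold change of *Patz1* KO over WT was -0.70 (standard error, SE, 0.29, edgeR adjusted p = 0.0551), just outside the threshold of 0.05. The unadjusted p was 0.0270. The value rested on *Patz1* KO replicate 1: without it the log2 fold change was -0.28 with an adjusted p of 0.423, and without *Patz1* KO replicate 2 it was -1.16. *Nanog* was called lower in 7 of 14 alternatives.

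*Sox2* encodes an HMG box factor of neural progenitors as well as of mESCs. The WT libraries held 2747 and 3171 of its reads and the *Patz1* KO libraries 3846 and 2960, or 184 and 199 against 159 and 176 CPM. All 4 libraries were high, and the *Patz1* KO libraries were slightly below WT, with means of 192 ± 10.6 and 168 ± 12.6 CPM (SD, n = 2 each). On the log2 scale this was a fold change of -0.20 (SE 0.090, edgeR adjusted p = 0.0800), so a difference was not called. Without *Patz1* KO replicate 2 the same gene was called, at -0.27 with an adjusted p of 0.00205. *Sox2* gave between 94.0% (Wilson 95% interval 93.2% to 94.8%, WT replicate 2) and 96.2% (95.5% to 96.7%, *Patz1* KO replicate 1) of all counts of the 10 genes. *Sox2* lies within *Sox2ot*, a long non-coding RNA on the same strand, and shares no annotated exon with it. *Sox2ot* rose by 0.47 on the log2 scale, with 50.4 ± 1.31 CPM in WT and 69.7 ± 1.16 CPM in *Patz1* KO (SD, n = 2 each; SE 0.093, edgeR adjusted p = 0.000452), while *Sox2* was not called.

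Among the factors tied to the naive state, *Klf4* fell in *Patz1* KO MNs, *Zfp42* did not pass the test, and *Esrrb* had too few counts to be tested. *Klf4* encodes a zinc finger factor of the reprogramming set that is also made in epithelia and endothelium. WT gave 37 and 61 reads of it but *Patz1* KO gave 15 and 22, or 2.48 and 3.84 against 0.619 and 1.31 CPM. Both WT libraries were higher than both *Patz1* KO libraries, with means of 3.16 ± 0.956 and 0.965 ± 0.490 CPM (SD, n = 2 each). On the log2 scale the fold change was -1.78 (SE 0.38, edgeR adjusted p = 0.000799), and it stayed below zero when any 1 library was left out (-2.34 to -1.27). Its call was lost when a log2 fold change of at least 1 either way was required (adjusted p = 0.116). In these bulk cultures, fewer cells that express a gene and less RNA per cell cannot be told apart.

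*Zfp42*, or *Rex1*, is a zinc finger gene widely used as a reporter of the naive state. Its 18 and 26 reads in WT, and 57 and 25 with *Patz1* KO, were 1.21 and 1.64 against 2.35 and 1.49 CPM. The groups overlapped, and the log2 fold change of 0.46 (SE 0.35, edgeR adjusted p = 0.298) was not called. *Esrrb*, an orphan nuclear receptor that can stand in for *Nanog* in mESCs, was counted 8 and 6 times in WT, against 14 and 17 times in *Patz1* KO. These correspond to 0.457 ± 0.113 and 0.796 ± 0.308 CPM (SD, n = 2 each). *Esrrb* was the 1 gene of the 10 with the *Patz1* KO libraries above the WT libraries without overlap, but its ratio of 1.66 had a counting interval of 0.859 to 3.38, and it was too low for the test. Unfiltered, its adjusted p was 0.359.

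The remaining 4 genes encode proteins of mESC chromatin, signalling and RNA binding. *Utf1*, a chromatin-bound factor, had no count in any of the 4 libraries, which allows a level of up to 0.203 CPM of the total count in the shallowest one. *Tdgf1*, or *Cripto*, the co-receptor of Nodal, was counted 1 and 3 times in WT, against 2 and 4 times in *Patz1* KO, a ratio of 1.13 (counting interval 0.267 to 5.43). *Dppa4*, a SAP domain protein of chromatin, had 6 and 6 against 7 and 6 counts and a ratio of 0.813 (counting interval 0.342 to 1.95). A difference in *Utf1*, *Tdgf1* or *Dppa4* was not detectable at this depth.

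*Dppa5a*, also called *Esg1*, encodes a KH domain protein that binds RNA in mESCs. WT gave 12 and 18 reads of it but *Patz1* KO gave 8 and 4, or 0.806 and 1.13 against 0.330 and 0.238 CPM. The WT libraries were higher without overlap, and the log2 fold change was -1.71 (SE 0.52, edgeR adjusted p = 0.0118). The filter asked for 0.604 CPM in 2 libraries, and *Dppa5a* passed it only through the WT libraries. Its call was lost with DESeq2's Wald test (adjusted p = 0.133), without WT replicate 1 (0.0525) and without WT replicate 2 (0.214).

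Of the 10 genes, 5 were tested, 2 of them were called lower and 0 higher. Across all 14269 genes tested, 23.8% were called lower and 24.1% higher, 47.9% in all. At an unadjusted p below 0.05, 4 of the 5 were lower and 0 higher, against 27.1% and 27.4% of all genes. DESeq2's Wald test gave a fold change for 9 members, with no adjusted p for *Tdgf1*. It called *Klf4* lower and no member higher, against 15.4% lower and 16.9% higher over all genes it tested. With no filter on low counts 9 members were tested. *Klf4*, *Dppa5a* and *Nanog* were then lower and 0 members higher, against 17.8% and 20.1% of all genes. In 4 of the 5 tested genes both *Patz1* KO libraries were below both WT libraries, which was so for 37.2% of all genes tested, and in 0 of the 5 they were above, which was so for 37.0%. The groups did not overlap in 74.2% of all genes. Because *Dppa5a* passed the filter through WT, these counts describe the mESC genes and do not set them apart.

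**Figure D2:**
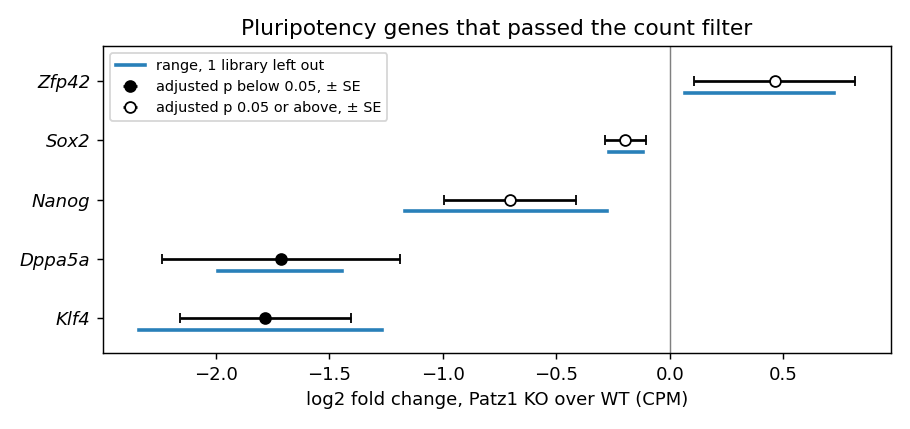
Log2 fold change of *Patz1* KO over WT for the 5 tested genes, as points with bars of 1 SE (filled where the adjusted p was below 0.05), and blue lines from the lowest to the highest value with 1 library left out. *Klf4* and *Dppa5a* lie at -1.78 and -1.71, *Nanog* and *Sox2* lie nearer to 0 on the same side, and *Zfp42* lies at 0.46.

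Counts were also divided by exon length, so that the 10 genes could be ordered against each other. *Sox2* averaged 87.4 CPM per kb over the 4 libraries (77.1 to 97.0), above 97.3% of the 18479 genes with a count and a known length. *Nanog* came next at 1.56 CPM per kb (0.846 to 2.1), and *Sox2* was 56.1 times higher. *Dppa5a* (1.01), *Zfp42* (0.889) and *Klf4* (0.677) followed, all with more CPM per kb than 33.7% to 37.4% of the detected genes. *Dppa4* (0.215), *Pou5f1* (0.139), *Esrrb* (0.104) and *Tdgf1* (0.0550) were lower still, and *Utf1* was at 0. From *Nanog* down to *Tdgf1*, each gene overlapped with the next one in the order across libraries, so among the genes with a count only the step from *Sox2* to *Nanog* was beyond that spread. For scale, the median gene of the MN list stood at 35.3 CPM per kb and that of a neural progenitor list at 14.6.

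**Figure D3:**
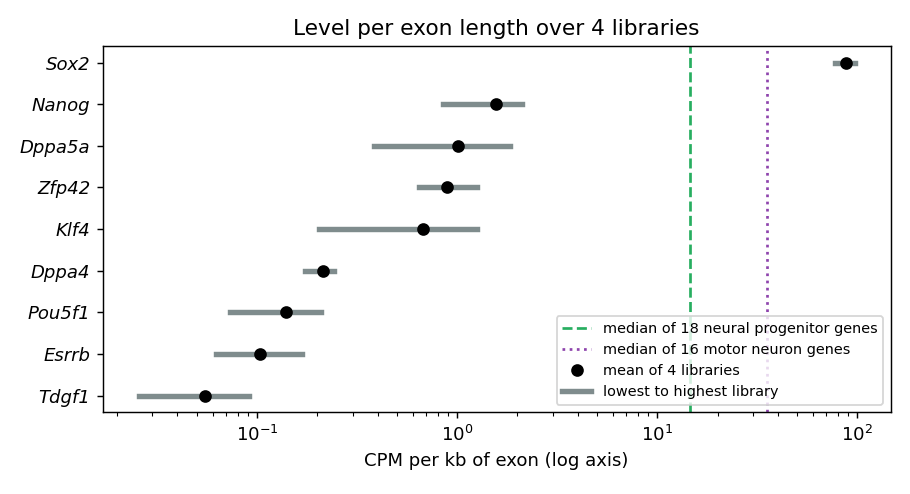
Mean level per exon length (CPM per kb, log axis) of the 9 genes with a count, with grey lines from the lowest to the highest of the 4 libraries and vertical lines at the medians of the neural progenitor and MN lists. *Sox2* is separated from the others by the 56.1-fold step to *Nanog*, and neighbouring genes from *Nanog* down overlap.

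Several of these genes have processed copies elsewhere in the genome, and reads from a copy may be assigned to either place. Positions are those of GENCODE M21 on GRCm38, the assembly also called mm10. *Dppa5a* (chromosome 9, 78367052 to 78368177, minus strand) shares 38.6% of its exonic 50-base stretches with other annotated genes, among them *Dppa5b* and *Dppa5c*, which are not rows of the count data used here, and *Pigp*, which is. *Pigp* shares 70 such stretches with *Dppa5a* and was called higher, at 38.5 ± 2.77 CPM in WT and 54.3 ± 9.3 CPM in *Patz1* KO (SD, n = 2 each), while *Dppa5a* was called lower. *Dppa4* (chromosome 16, 48283733 to 48294237) shares 31.3%. *Pou5f1* (chromosome 17, 35506018 to 35510772) shares 10.1%, mostly with *Gm19553*, an antisense gene at the same locus and not a copy elsewhere. Few of its shared stretches are with *Gm5712*, which had 0 counts in every library. The share was 8.86% for *Tdgf1*, 8.52% for *Zfp42* and 4.61% for *Nanog* (chromosome 6, 122707489 to 122714633). *Klf4* (chromosome 4, 55527143 to 55532466, minus strand) had 0.263%, and *Sox2* (chromosome 3, 34650405 to 34652461), *Esrrb* and *Utf1* had none. The exons of *Pou5f1* overlap those of *Gm19553* over 317 bases, where most of the 10.1% lies. The strand setting of the counting is not given in the sources used here. The low counts of *Dppa5a* and *Dppa4*, through shared stretches, and of *Pou5f1*, mainly through the antisense overlap, are therefore the least certain in origin.

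Promoter windows from RefSeq (GRCm38.p6, from 250 bases before to 50 bases after the transcript start) were found for 8 of the 10 genes. They were searched on both strands for ATGCAAA, the core of the octamer bound by OCT4, for CATTGT, a core bound by SOX factors, and for GGGAGGG, a G-rich core. The octamer core was present for *Nanog*, *Sox2* and *Zfp42*, 3 of 8 genes, and for 5.24% of all 27025 genes with a window. The SOX core was found for *Pou5f1*, *Nanog* and *Esrrb* and for 14.3% of all genes. The G-rich core was found for 6 of 8 genes, all but *Sox2* and *Tdgf1*, and for 23.8% of all genes. The matches describe sequence, and binding was not measured in these data. The following stretches show the 3 octamer matches, the SOX match next to the one of *Nanog*, and the G-rich matches of *Klf4*, which fell, and *Pou5f1*, which was not tested. They are written 5′ to 3′ on the strand of the gene, with the match in capitals, and a match on the other strand appears as its reverse complement.
Nanog octamer (chr6:122707403-122707431, plus strand): ttacagcttctTTTGCATtacaatgtcca
Nanog SOX (chr6:122707411-122707438, plus strand): tcttttgcattACAATGtccatggtgga
Sox2 octamer (chr3:34649885-34649913, plus strand): cgccccctttcATGCAAAaccctctggcg
Zfp42 octamer (chr8:43307177-43307205, minus strand): ctgaagaggcaTTTGCATaactgagcaag
Klf4 G-rich (chr4:55532660-55532688, minus strand): cccgcccgcgcCCCTCCCtcgcccccgcc
Pou5f1 G-rich (chr17:35506013-35506041, plus strand): gggtgggattgGGGAGGGagaggtgaaac

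In *Nanog* the octamer and SOX letters lie side by side, and both stretches above cover them. Genes with the octamer core were not alike in level, since *Sox2* was at 87.4 CPM per kb and *Nanog* and *Zfp42* at 1.56 and 0.889. Among the genes with the G-rich core, *Klf4* was called lower (log2 fold change -1.78), while *Nanog* (-0.70) and *Zfp42* (0.46) were not called. *Pou5f1*, *Esrrb* and *Utf1* could not be tested. Whether the changes of these genes differ from each other was not tested.

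A wider list of 30 genes, called the naive network list here and without the 10 above, was compared in the same way. Not all of its genes are limited to the naive state. Of 18 tested, 13 fell and 0 rose in *Patz1* KO MNs (1 rose without *Patz1* KO replicate 1), with a median log2 fold change of -0.92 against -0.0014 over all genes tested. Over all genes 23.8% fell and 24.1% rose, and the counts of this and the following lists stand beside that background. The other 12 had too few counts, and *Fgf4* and *Tcl1* had none at all. The falls included genes of the let-7 pathway that neural progenitors also express. *Lin28a*, an RNA-binding repressor of let-7, fell from 47.7 ± 1.01 to 23.8 ± 4.83 CPM, and its paralog *Lin28b* fell from 41.1 ± 5.91 to 17.6 ± 0.597 CPM (SD, n = 2 each). *Trim71*, a let-7 target with a TRIM and NHL structure, went from 313 and 336 counts to 189 and 124 (log2 fold change -1.47). *Sall4*, a zinc finger partner of OCT4, fell by 1.64 on the log2 scale. *Tdh*, the threonine dehydrogenase of mESC metabolism, went from 50 and 47 counts to 0 and 6 (log2 fold change -4.35). *L1td1*, an RNA-binding gene derived from a LINE-1 element, went from 30 and 26 counts to 3 and 3 (log2 fold change -3.57). Its ratio of *Patz1* KO to WT was 0.0805 (counting interval 0.0283 to 0.186). *L1td1* was named outside the rule for level, after its value was seen. Among the genes of this list called lower, *L1td1*, *Tdh*, *Klf5*, *Nr0b1* and *Fbxo15* passed the filter only through WT. *Rif1*, a factor of replication timing and the most counted gene of the list, fell by 0.50. The KLF family members *Klf5* and *Klf2* were named after their values were seen, because of *Klf4*. *Klf5* had 16 and 17 against 7 and 5 counts (log2 fold change -1.85), and *Klf2* 6 and 9 against 1 and 0 (not tested). Among the other untested genes, *Prdm14* had 0 and 0 against 4 and 5 counts and *Nr5a2* 5 and 4 against 12 and 10. Both were higher in *Patz1* KO without overlap, while *Dppa2* and *Zscan10* were lower. Of the tested genes not called, *Gbx2* was higher without overlap, and *Gdf3*, *Nacc1* and *Tet2* were lower.

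Genes of the primed epiblast, the state that follows the naive one, moved both ways. Of 9 tested genes 2 rose and 4 fell, with a median log2 fold change of -0.41, and without WT replicate 1 the number that fell was 2. *Fst*, the activin antagonist follistatin, fell by 3.20, and it passed the filter only through WT. *Foxd3*, a forkhead factor of epiblast and neural crest, rose from 10 and 9 counts to 82 and 63 (log2 fold change 2.51). It passed the filter only through *Patz1* KO. The other gene that rose was *Sox3*, which is also on the neural progenitor list described below. *Sox11*, the most counted gene and a neuronal SOX factor, had a log2 fold change of -0.22 that was not called. A list of 20 factors known for silencing *Pou5f1* and other mESC genes, mostly nuclear receptors, DNA methylation factors and chromatin modifiers, had 3 genes higher and 8 lower, with a median of -0.19. The 55.0% called were near the 47.9% of all genes. The 3 higher genes were *Tcf7l1*, an HMG box factor downstream of Wnt, *Kdm1a*, a histone demethylase, and *Rb1*, a pocket protein of the cell cycle, all named after their values were seen. Only 1 gene was called higher without WT replicate 1 or without *Patz1* KO replicate 2. All 20 were tested, and 19 averaged at least 10 CPM. *Nr6a1*, the nuclear receptor that represses *Pou5f1*, went from 34.7 ± 0.042 to 25.4 ± 0.565 CPM (SD, n = 2 each). *Dnmt3b*, which is on the primed epiblast and silencing lists, went from 14.2 ± 0.262 to 8.53 ± 1.09 CPM (SD, n = 2 each). Both were named after their values were seen. *Chd4*, the most counted silencing factor, was not called (log2 fold change 0.12).

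Markers of other cells moved with *Klf4* and *Dppa5a*. In an endoderm list 12 of 14 tested genes fell and 0 rose. The summed level of the 15 genes went from 1354 and 1523 CPM in WT to 371 and 344 CPM in *Patz1* KO. Most of that level came from *Col4a1* (477 and 560 CPM in WT), *Lama1* (288 and 296), *Sparc*, *Col4a2* and *Lamb1*. *Gata4* (4.97 and 5.03 CPM in WT), *Gata6* (5.04 and 6.1) and *Sox17* (2.55 and 3.02) added little to it but also fell. *Sox7* and *Afp* were not called. *Lama1* and the genes from *Gata4* to *Afp* were named after their values were seen. *Col4a1*, a basement membrane collagen, fell by 3.23 and *Pdgfra*, a growth factor receptor of primitive endoderm, fell by 3.96 on the log2 scale. In a trophoblast list 3 of 4 tested genes fell, and the summed level of the 9 genes in the files was 44.1 and 41.3 CPM in WT and 4.58 and 5.37 CPM in *Patz1* KO. Most of that level came from the simple epithelial keratins *Krt8* (23.0 and 19.2 CPM in WT) and *Krt18* (17.1 and 17.2 CPM in WT). These fell by 3.43 and 3.46, and *Tpbpa* went from 32 and 43 counts to 0 and 0. *Cdx2*, *Eomes*, *Elf5*, *Hand1* and *Ascl2* had too few counts for the test, and *Tead4* was not called. Of 11 tested germ cell genes 1 rose and 5 fell, and the summed level was 37.8 and 42.8 CPM in WT and 29.2 and 30.9 CPM in *Patz1* KO. Without WT replicate 2 the number of germ cell genes that fell was 2. Among these genes, *Rhox5*, an X-linked homeobox gene, fell by 3.48, *Dazl*, an RNA-binding gene of germ cells, fell by 1.78, and *Stk31* rose by 2.09. *Rhox5* and *Dazl* passed the filter only through WT. In a list for the 2-cell-like state 2 of 3 tested genes fell and 4 genes had no count, and 0 fell without WT replicate 1 and 1 without WT replicate 2. The 2 that fell were *Eif1a*, a translation initiation factor (means of 88.4 CPM in WT and 68.5 CPM in *Patz1* KO), and *Usp17la* (2.24 and 1.05 CPM). *Zfp352* was not called. The part of these other cells in the fall of *Klf4* and *Dppa5a* was not tested.

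In the MN list 11 of 16 genes rose and 0 fell (2 fell without *Patz1* KO replicate 2), with a median log2 fold change of 0.66, and the summed level went from 4075 and 3787 to 5601 and 5115 CPM. *Prph*, the neuronal intermediate filament peripherin, rose by 1.33 and *Tubb3*, a neuronal tubulin, by 0.53. In the neural progenitor list 7 of 18 genes rose and 7 fell, with a median of -0.14 and summed levels of 2660 and 2517 CPM in WT and 2585 and 2572 CPM in *Patz1* KO. *Sox1*, the SOXB1 relative of *Sox2*, rose from 209 and 227 to 683 and 497 counts (log2 fold change 1.03), whereas *Pax6* fell by 1.05 and *Zbtb16* by 1.19. *Vim*, the most counted gene of the list, had a log2 fold change of -0.04 that was not called. *Sox3*, the third SOXB1 gene, rose by 0.47 and was named after its value was seen, so *Sox1* and *Sox3* were both called higher while *Sox2* was not called. Whether the change of *Sox2* differs from theirs was not tested.

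**Figure D4:**
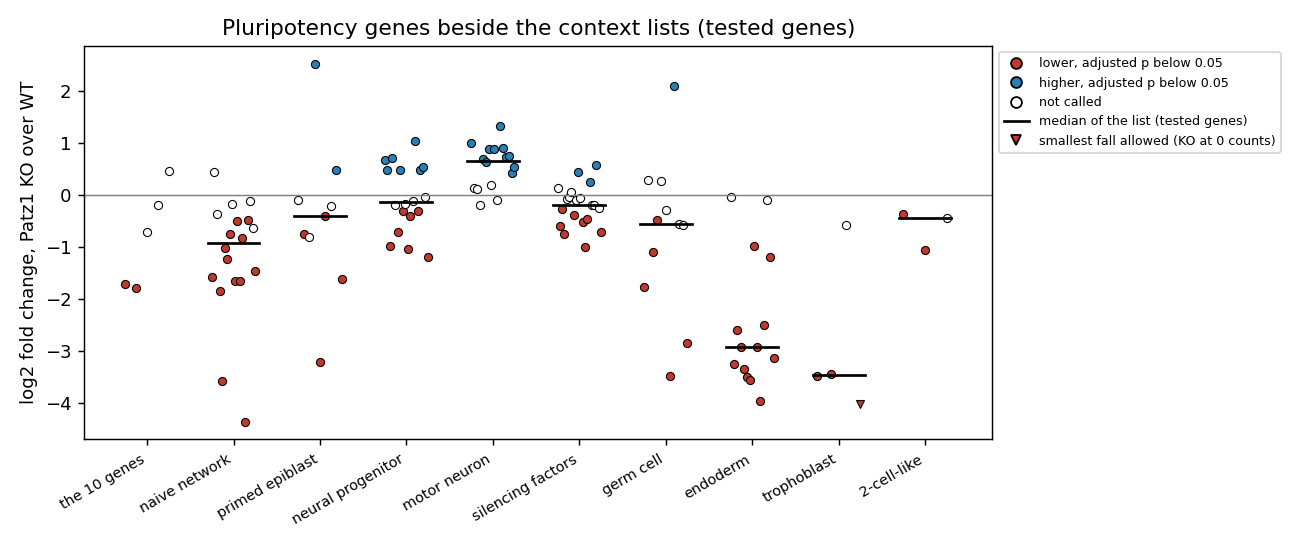
Log2 fold change of *Patz1* KO over WT of every tested gene among the 10 mESC genes and in each context list, coloured by call, with bars at the medians of the lists and a triangle at the smallest fall allowed for a gene with 0 counts in *Patz1* KO. Genes of the naive network, endoderm and trophoblast lists lie mostly below zero, with medians of -0.92, -2.92 and -3.45. MN genes lie mostly above, with a median of 0.66.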

How the data were processed

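The deposited values are raw counts of reads per gene symbol, made by the authors with mapping to mm10. The submitters' processing notes name TopHat2 2.1.1, Bowtie2 2.3.1, featureCounts 1.6.2 and DESeq2, without their roles. The annotation and strand setting of the counting are not given in the sources used here. Groups were taken from the genotype labels. Replicates were compared first, and their counts differed by more than sampling noise (chi-square per gene 8.44 in WT and 18.7 in *Patz1* KO). 

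Counts were scaled with TMM, filtered with filterByExpr (minimum count 10) and compared with edgeR's quasi-likelihood test (edgeR 4.0.16, limma 3.58.1, R 4.3.3). P values were adjusted by Benjamini-Hochberg over 14269 genes at a threshold of 0.05. Standard errors were obtained from the fold change on the log2 scale and the square root of F. With 2 libraries against 2, an exact permutation test cannot go below p = 0.333, so none was run. Ratios of untested genes, and of *L1td1*, are of summed counts with exact intervals. Exon lengths, overlaps and 50-base stretches are from GENCODE M21, which matched 23039 symbols (1262 by an older name). Tests were checked on simulated counts. DESeq2 1.42.0, other scalings, filters, robust estimation, a replicate block and leaving out each library were alternatives, and thinning was added after the data were seen. Tables and plots used Python 3.11.15, numpy 2.4.6, pandas 2.3.3, scipy 1.17.1 and matplotlib 3.10.9.

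The 10 genes and the 9 lists, written from general knowledge, were chosen with earlier results of these data known. Named genes were the 10, *Patz1*, the most counted gene of each list, up to 6 called genes per list with an absolute log2 fold change above 1 and at least 1 CPM, and overlaps or copies of the 10. Passing the filter only through the group where a list gene was high favours a difference. The counts of the lists therefore describe and test nothing.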

Additional observations from a re-analysis of the deposited data

How the results depend on the processing

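The sign of the log2 fold change of the mESC genes with a fold change was kept in every alternative that gave a value, and 0 were called higher in any of them. The 6836 genes called in all became 718 when a log2 fold change of at least 1 either way was required, and dropping 1 library at a time gave 4521 (without WT replicate 2) to 7816 (without *Patz1* KO replicate 2). The 2 mESC genes called lower became 1 with DESeq2's Wald test and 0 with the minimum log2 fold change of 1, and leaving out 1 library gave 1 to 4. *Nanog* was the gene added with DESeq2's size factors, library size alone, robust estimation and no filter on low counts, each with 3 called lower. With the replicate number as a block, 7361 genes and 3 mESC genes were called. The labels do not say that the numbers pair the samples, and the deviations of same-numbered libraries correlated at 0.041. *Klf4* was called in 13 of 14 alternatives and *Dppa5a* in 9 of 13. A fit that leaves out 1 library assumes that the lone library varies like the other group. With *Sox2* aside, the mESC genes had few counts, and depth limits what can be said of *Pou5f1*, *Esrrb*, *Tdgf1*, *Dppa4* and *Utf1*. The genes of the naive network list called lower went from 8 to 13 and those of the endoderm list from 8 to 12 over the alternatives without a minimum fold change, which left 4 and 10.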

Other observations

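The genes next to the 10 mESC genes on the chromosome were listed on both sides, and of 20 such neighbours 7 were tested, 2 rose and 3 fell. Over all genes tested, 24.1% rose and 23.8% fell. *Slc2a3*, a glucose transporter gene that lies 13175 bases from *Nanog*, was counted 541 and 614 times in WT, against 5902 and 5945 times in *Patz1* KO, and rose by 2.99 on the log2 scale (SE 0.14, edgeR adjusted p = 2.49e-11). *Nanog* itself had a log2 fold change of -0.70 and was not called. *Kndc1*, 2251 bases from *Utf1*, rose by 1.38 while *Utf1* had no count. *Tcf19* at 1961 bases from *Pou5f1*, fell by 0.63, and *Lrrc2*, 5386 bases from *Tdgf1*, fell by 1.41. *Dppa2*, the partner of *Dppa4* and 9670 bases from it, was counted 4 and 2 times in WT, against 2 and 1 times in *Patz1* KO. These neighbours were named after their values were seen.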
